A study of Mus musculus with 16 samples.

Results

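Beta-defensins are small cationic peptides held together by disulfide bonds, secreted by epithelia and able to damage microbial membranes. In the male tract many members of the family are made by the epididymal epithelium, where they coat sperm and are known for both host defence and effects on sperm maturation. Many of them depend on androgen, and in the epididymis also on factors that arrive in the fluid from the testis. The 8 genes described here are Defb2, Defb4, Defb7, Defb10, Defb11, Defb21, Defb35 and Defb41, taken by name from the probe sets that carry exactly 1 gene symbol, out of 18194 genes measured that way. Each gene had 1 such probe set, so no gene has 2 probes that could disagree.

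RNA of 2 tissues was studied, the efferent ducts, which carry sperm and fluid out of the testis, and the caput epididymis, the segment they empty into. The animals were adult male mice labelled 129BL/6, and each RNA sample was hybridized to a one-colour array. In each tissue there were 4 groups of 2 arrays. Sham-operated mice kept their testes and received vehicle (100 µL of 10% ethanol in sesame oil), and castrated mice received vehicle, 0.015 mg testosterone propionate (an androgen ester) or 0.015 mg estradiol. All animals were injected 14 days after surgery and tissue was taken 12 h after the injection, so the hormone groups show a short exposure after a long withdrawal. Every hormone-treated animal had been castrated, and in the mouse castration removes testicular fluid and sperm as well as androgen.

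Values are the deposited linear intensities, with the spread of each group given as the SD of its 2 arrays. A group mean under 16 counts as not expressed. Differences were tested with limma on log2 intensity, fitted over all genes with 1 model for each tissue, and a gene is said to rise or fall where the Benjamini-Hochberg adjusted p over all genes is under 0.05. A fold change is the ratio of geometric means, and against a group that is not expressed it is given as at least the other group's geometric mean over 16. Probe sets differ in how brightly they report, so intensities are compared between groups for a gene and not between genes. In whole tissue, fewer cells of a type and less RNA per cell cannot be told apart.

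Of the 8 genes, 6 lie on chromosome 8, Defb21 on chromosome 2 and Defb41 on chromosome 1. In the RefSeq annotation of GRCm38.p6, Defb2, Defb10, Defb11 and Defb35 stand in 1 run of neighbouring protein-coding genes in the order Defb1, Defb50, Defb2, Defb10, Defb9, Defb11, Defb15, Defb35 and Defb13, and Defb4 and Defb7 belong to another group of defensin genes on the chromosome. Promoters of 5 of the 8 genes could be matched by gene ID in the RefSeq table of that build (Defb7, Defb10, Defb11, Defb21 and Defb41). The 250 bases upstream of the start site are shown for Defb10 and Defb11, near neighbours on chromosome 8 (Defb9 lies between them) whose values in the caput differed. They are printed 5′ to 3′ on the gene's own strand, at chr8:21858651-21858900 (+) and chr8:21906433-21906682 (-). Capitals mark the longest run of identical bases that they share.
Defb10: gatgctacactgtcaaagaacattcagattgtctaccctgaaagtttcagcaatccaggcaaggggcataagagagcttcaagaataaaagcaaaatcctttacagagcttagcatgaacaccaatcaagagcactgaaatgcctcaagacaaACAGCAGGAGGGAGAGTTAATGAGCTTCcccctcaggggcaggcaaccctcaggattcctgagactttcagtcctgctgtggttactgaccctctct
Defb11: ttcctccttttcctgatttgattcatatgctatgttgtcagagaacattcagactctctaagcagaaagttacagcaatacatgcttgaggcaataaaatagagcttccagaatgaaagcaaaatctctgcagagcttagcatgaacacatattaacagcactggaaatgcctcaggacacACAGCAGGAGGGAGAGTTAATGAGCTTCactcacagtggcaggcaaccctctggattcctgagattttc
The shared run of 28 bases began 97 bases before the start site in Defb10 and 69 bases before it in Defb11. The estrogen receptor palindrome GGTCANNNTGACC was in 23 of 32851 promoter windows of 300 bases (250 before to 50 after the start site), or 0.070% of them, and in none of the windows of the matched genes. A motif that rare is absent from nearly all windows, so its absence does not set these genes apart. Androgen receptor motifs were not counted in these windows, so nothing is said of them for either printed sequence. Defb10 and Defb11 shared 235 of 271 aligned bases, or 86.7%, in the 300-base windows, against 40.3% to 52.2% for other pairs of the matched genes. The probe set for Defb11 is of a kind whose probes can match related sequences, so the Defb11 signal may include Defb9 or Defb10 transcripts and is uncertain in that respect.

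Measures of array quality differed between tissues and, within both tissues, between groups. In the efferent duct, the log2 ratio of 3′ to 5′ actin signal was 3.11 to 3.87 on the 4 vehicle arrays (sham and castrated) and 0.913 to 1.93 on the 4 hormone arrays. The brightest probe set there reached 14456 to 19967 in the vehicle set but just 3218 to 4517 in the hormone set. Within the duct vehicle arrays, castrated array 1 stood apart, with an actin ratio of 3.87 against 3.11 to 3.18 and the like log2 ratio for Gapdh at 2.90 against 1.88 to 1.99 on the other 3. In the caput the spread was smaller, but groups separated there too. The actin ratio was 0.636 to 0.751 in sham, 0.79 to 1.02 in castrated, 1.08 to 1.20 in testosterone propionate and 0.877 to 1.02 in estradiol caput, and the Gapdh ratio was -0.51 to -0.39 on vehicle arrays and -0.37 to -0.14 on hormone arrays. So in the caput each hormone group differed from both vehicle groups in the Gapdh ratio, and castrated from sham in both ratios, with no overlap. The part of RNA quality and processing in the comparisons was not tested. The efferent duct and caput were also labelled with different kits, so tissue and kit cannot be told apart.

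After castration, 3 expressed beta-defensins fell in the caput. Defb21, an epididymal beta-defensin, had intensities of 3757 and 3664 on the sham arrays and 86.3 and 118 on the castrated arrays. Both castrated arrays lay far below both sham arrays, and the mean was left at 2.76% of sham. The fall was 36.7-fold (log2 difference -5.20, 95% interval -5.68 to -4.72, limma adjusted p = 0.00126). Defb41, a caput-enriched beta-defensin, went from 5112 and 5536 in sham to 199 and 275 after castration. The groups again did not overlap, and Defb41 fell 22.7-fold (log2 difference -4.51, 95% interval -5.18 to -3.84, limma adjusted p = 0.00289). Defb10 went from 424 and 290.3 to 16.3 and 46.8, with the castrated arrays 2.87-fold apart from each other. It fell 12.7-fold (log2 difference -3.67, 95% interval -5.15 to -2.19, limma adjusted p = 0.0209).

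The fourth gene past the threshold, Defb4, a beta-defensin inducible in other epithelia, was at 10.1 and 15.7 in sham and 0.506 and 0.683 in castrated caput. Both means are under 16, so Defb4 is not expressed by the rule here, and no fold is given although limma gave an adjusted p of 0.0302. Thus 4 of the 8 genes were called lower and 0 higher, where 6.12% of all genes tested were called lower and 7.9% higher. The calls of Defb21 and Defb41 stood with any 1 of the 8 caput arrays left out. With only the 4 arrays compared both were lost (adjusted p = 0.0518 for each), as was every call over all genes, and in 1 fit of all 16 arrays Defb41 was lost (adjusted p = 0.136). The actin and Gapdh ratios also separated castrated from sham caput. Without sham array 1 or 2 the Defb10 adjusted p was 0.0745 to 0.101, without castrated array 1 it was 0.0631, and over 17 alternative limma settings it ran from 0.000301 to 0.101.

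The other 4 genes did not pass the test after castration in the caput. Defb35, an epididymal beta-defensin, was at 6237 and 3692 in sham and 2602 and 2975 in castrated caput. The groups did not overlap but the sham arrays stood far apart, and the log2 difference was -0.79 (95% interval -1.48 to -0.09, limma adjusted p = 0.124). Defb2 was at 835 and 1489.9 in sham and 2932 and 1954 in castrated caput, with both castrated arrays the higher ones. Its log2 difference of 1.10 (95% interval -0.02 to 2.23, limma adjusted p = 0.166) pointed the other way from those of Defb10 and Defb21. Defb11 was at 75.9 and 149 in sham and at 119 and 131 in castrated caput, and the sham arrays enclosed the castrated ones (log2 difference 0.23, 95% interval -1.28 to 1.74, limma adjusted p = 0.832). Defb7 was at 0.268 to 5.28 on the caput arrays and is not expressed there by the rule. The neighbours Defb2, Defb10 and Defb11 thus had 3 different sets of values in the caput, with Defb10 the only 1 of them to pass the test.

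**Figure D1:**
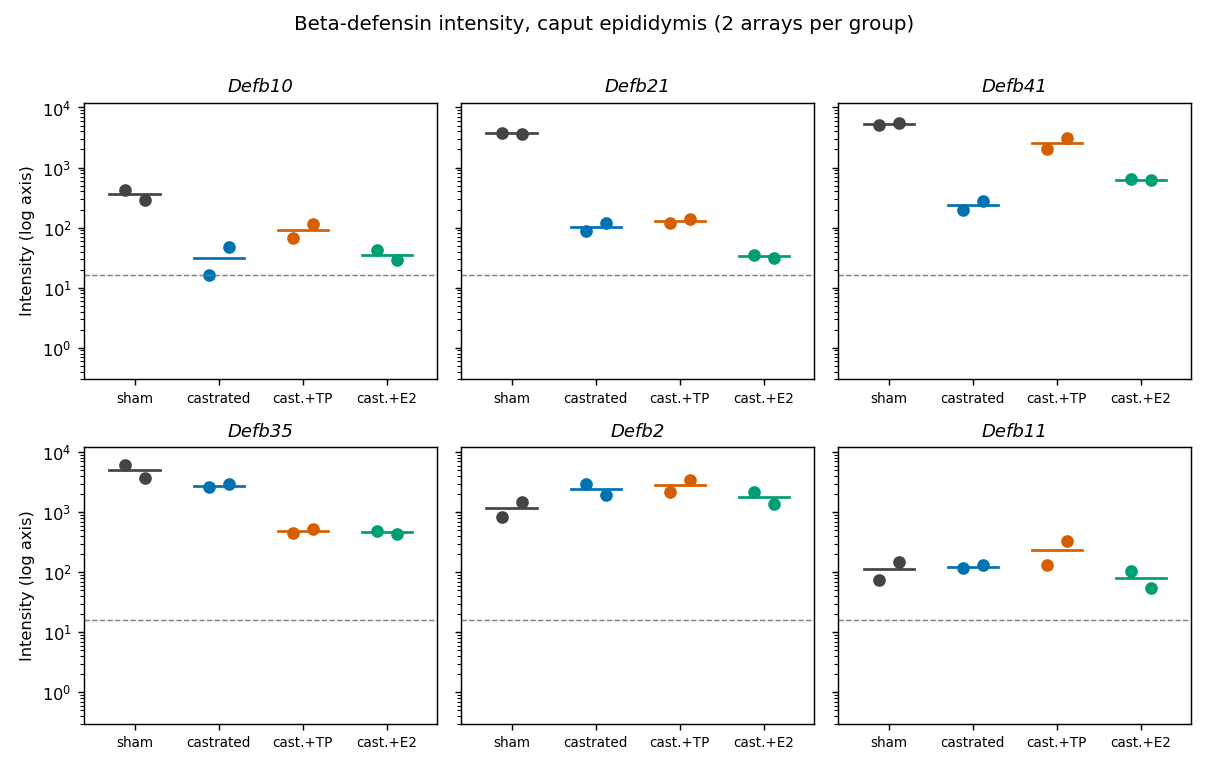
Deposited intensity (log scale) of Defb10, Defb21, Defb41, Defb35, Defb2 and Defb11 on each caput array, by group. Points are arrays, bars are group means and the dashed line is 16. Defb21, Defb41 and Defb10 are highest on the sham arrays, and Defb35 is high on sham and castrated arrays alike. Defb4 and Defb7 are not drawn.

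At 12 h after testosterone propionate, Defb41 was the only 1 of these genes to have risen in the caput. Its intensities were 2028 and 3150.1 against 199 and 275 in the castrated group. Both hormone arrays lay above both castrated arrays, and the mean was back at 48.6% of sham. The rise was 10.8-fold (log2 difference 3.43, 95% interval 2.76 to 4.11, limma adjusted p = 0.0147). Against sham, Defb41 after testosterone propionate had a log2 difference of -1.07 (95% interval -1.75 to -0.40, limma adjusted p = 0.0669), and the arrays of these groups did not overlap.

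Defb35 moved the opposite way. It was at 448 and 535 after testosterone propionate, below both castrated arrays at 2602 and 2975. It fell 5.68-fold (log2 difference -2.51, 95% interval -3.20 to -1.81, limma adjusted p = 0.0309), to 9.91% of the sham mean. After estradiol Defb35 was about as low, at 484 and 437. The Gapdh ratio likewise separated the hormone arrays from the vehicle arrays of the caput, and its part was not tested. So 1 gene was called higher and 1 lower, where 1.02% of all genes were called higher and 0.649% lower. The Defb41 adjusted p was 0.0589 to 0.0873 with either array of the sham, castrated or testosterone propionate group left out, and it stayed under the threshold without an estradiol array. The Defb35 adjusted p was 0.0561 to 0.158 with any 1 of the 8 caput arrays left out. Over 17 alternative limma settings the adjusted p ran from 6.18e-06 to 0.411 for Defb41 and from 6.77e-05 to 0.464 for Defb35.

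Defb21 did not return in that time. It was at 118 and 136 after testosterone propionate and 86.3 and 118 in the castrated group, and the groups overlapped. The log2 difference was 0.33 (95% interval -0.15 to 0.81, limma adjusted p = 0.419). The mean stayed at 3.43% of sham, 29.3-fold below it (log2 difference -4.87, limma adjusted p = 0.00274). Defb10 was at 66.8 and 114, above both castrated arrays and below both sham arrays. Neither step passed the test, with a log2 difference of 1.66 from castrated (limma adjusted p = 0.22) and of -2.01 from sham (limma adjusted p = 0.0932). Defb2 was at 2139 and 3470.3 and Defb11 at 130.4 and 338, each with 1 array inside the castrated range.

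Against sham, the testosterone propionate group had 2 of the 8 genes lower and 0 higher, where 4.51% of all genes were called lower and 4.65% higher. The second, beside Defb21, was Defb35, 9.79-fold lower (log2 difference -3.29, limma adjusted p = 0.00969). Without testosterone propionate array 1 or 2 its adjusted p was 0.0553 to 0.0595, and over 17 alternative limma settings it ran from 8.52e-06 to 0.189. The comparison with sham and the comparison with castrated share the hormone arrays.

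**Figure D2:**
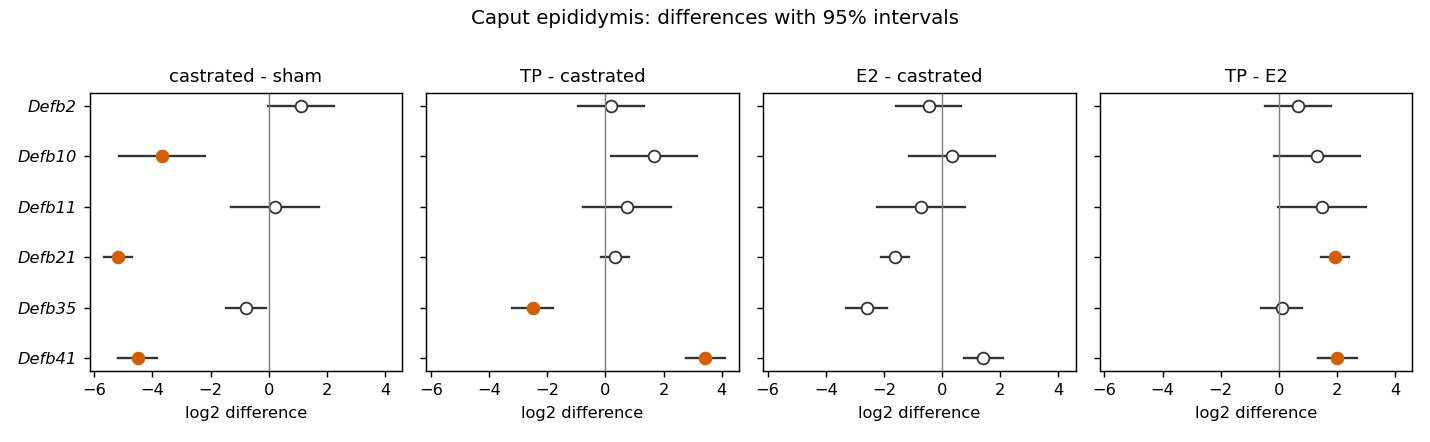
Log2 differences in the caput with 95% intervals for Defb2, Defb10, Defb11, Defb21, Defb35 and Defb41. The comparisons drawn are castrated against sham, each hormone against castrated, and testosterone propionate against estradiol. Filled orange points have a limma adjusted p under 0.05 and open points do not. Defb4 and Defb7 are not drawn. Defb41 is the filled point to the right for testosterone propionate against castrated and Defb35 the filled point to the left.

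Estradiol gave no call against castrated in the caput for any of the 8 genes, nor for any other gene. Under limma 0.0% of all genes were called higher and 0.0% lower. The smallest adjusted p was 0.0501, and 2637 genes had an unadjusted p under 0.05. Some groups did not overlap all the same. Defb35 was at 484 and 437 after estradiol, below both castrated arrays (log2 difference -2.60, 95% interval -3.29 to -1.90, limma adjusted p = 0.0667). Defb21 was at 34.8 and 31.5, also below both castrated arrays (log2 difference -1.61, 95% interval -2.09 to -1.13, limma adjusted p = 0.0741). Defb41 was at 633 and 617, above both castrated arrays (log2 difference 1.42, 95% interval 0.75 to 2.09, limma adjusted p = 0.138). Defb10 was at 42.3 and 28.7, within the castrated range. With the dimmest 40% of genes left out, or with an intensity trend in the variance prior, 3 of the 8 genes passed the threshold in this comparison, 1 higher and 2 lower. In those settings 3.18% and 2.31% of all genes tested were called higher and 2.1% and 1.67% lower.

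Against sham, 4 of the 8 genes were lower and 0 higher after estradiol, where 7.26% of all genes were called lower and 9.99% higher. Defb21 was 112-fold lower (log2 difference -6.81, limma adjusted p = 0.000742), its lowest level of the 4 caput groups at 0.894% of the sham mean. Defb35 was 10.4-fold lower, Defb41 8.51-fold lower and Defb10 10.1-fold lower, with limma adjusted p values of 0.00491, 0.00521 and 0.0224. Without either sham or either estradiol array the Defb10 adjusted p was 0.0731 to 0.105, and over 17 alternative limma settings it ran from 0.000475 to 0.105. The other 3 calls stood with any 1 caput array left out. With only the 4 arrays compared, Defb35 and Defb41 were lost (adjusted p = 0.0592 and 0.0517), and in 1 fit of all 16 arrays they were lost too (0.148 and 0.29).

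The hormones were compared directly at the same dose and time. Defb21 was 3.82-fold higher after testosterone propionate than after estradiol (log2 difference 1.94, 95% interval 1.46 to 2.42, limma adjusted p = 0.0228), and Defb41 4.04-fold higher (log2 difference 2.02, 95% interval 1.34 to 2.69, limma adjusted p = 0.0373). These were 2 of the 8 genes higher and 0 lower, where 1.12% of all genes were called higher and 1.0% lower. The Defb21 adjusted p was 0.0733 to 0.119 with either array of the sham, testosterone propionate or estradiol group left out, and the Defb41 adjusted p was 0.0707 to 0.138 with any 1 of the 8 caput arrays left out. Over 17 alternative limma settings they ran from 7.5e-05 to 0.238 and from 0.00019 to 0.723. Defb35 gave no detectable difference between the hormones: it was at 448 and 535 after testosterone propionate and at 484 and 437 after estradiol, with a log2 difference of 0.09 (95% interval -0.61 to 0.79, limma adjusted p = 0.904). That interval leaves room for a difference of up to 0.79 on the log2 scale.

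The order of the group means in the caput was described for each gene, with no test between genes. Defb41 went from sham through testosterone propionate and estradiol to castrated, with no overlap between neighbours. Defb10 had the same order, but the estradiol arrays lay within the castrated range. Defb21 went from sham to testosterone propionate, castrated and estradiol, with overlap between testosterone propionate and castrated. Defb35 went from sham to castrated to both hormone groups, which overlapped. For Defb2 and Defb11 every pair of neighbours in the order overlapped.

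The caput epithelium markers Rnase10, Lcn5, Lcn8, Lcn9, Gpx5 and Adam7 were measured as 6 of 8 listed, and their summed intensity was, like Defb21 and Defb41, highest in sham caput. It was 56930 to 57587 in sham caput, 5723 to 5944 after castration, 10450 to 14597 after testosterone propionate and 4257 to 6830 after estradiol. Lcn9 was the 1 of the 6 with a mean under 16 in each castrated group. Germ cell markers (6 of 6 measured) summed to 1184 to 5288 in sham caput and to 88.1 to 91.9 after castration, with 4 of the 6 means then under 16. Fibroblast markers (5 of 5) summed to 7240 to 7512 in sham and to 8078 to 8448 in castrated caput. Members of that sum went opposite ways. With values under 16 set to 16, Col1a1 and Col1a2 fell (log2 differences -1.65 and -1.22) and Dcn rose (0.80). The part of these shifts in the defensin values was not tested.

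In the efferent duct, 3 of the adjacent genes, Defb2, Defb10 and Defb11, were high on both sham arrays and low on both castrated arrays. Defb11 was at 1576 and 1397 in sham and 16.2 and 0.499 in castrated duct, a difference of at least 92.8-fold (log2 difference -9.03, limma adjusted p = 0.113). Defb2 was at 1396 and 1088 in sham and 38 and 1.47 in castrated duct (log2 difference -7.36, limma adjusted p = 0.133). Defb10 was at 255 and 193 in sham and at 12.6 and 4.8 in castrated duct, at least 13.9-fold apart (log2 difference -4.84, limma adjusted p = 0.0558). Groups did not overlap for any of the 3, yet none passed the test. With values under 16 set to 16, Defb10 did (log2 difference -3.80, limma adjusted p = 0.00373). The castrated arrays of Defb2 and Defb11 differed from each other 25.8-fold and 32.5-fold, array 1 being the higher one and also the one that stood apart in the actin and Gapdh ratios.

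Defb21 was lower in level in the duct, at 117 and 294 in sham and 14.7 and 5.1 in castrated duct (at least 11.6-fold, log2 difference -4.42, limma adjusted p = 0.124). Under limma 0 of the 8 genes were called after castration in the duct, where 0.115% of all genes were called higher and 0.176% lower, with 2879 genes at an unadjusted p under 0.05. Of the 8 genes, Defb2, Defb7, Defb10, Defb11 and Defb21 were among those at an unadjusted p under 0.05. In 1 fit of all 16 arrays 4 of the 8 genes were called lower in this comparison, where 3.61% of all genes were called lower and 1.84% higher.

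**Figure D3:**
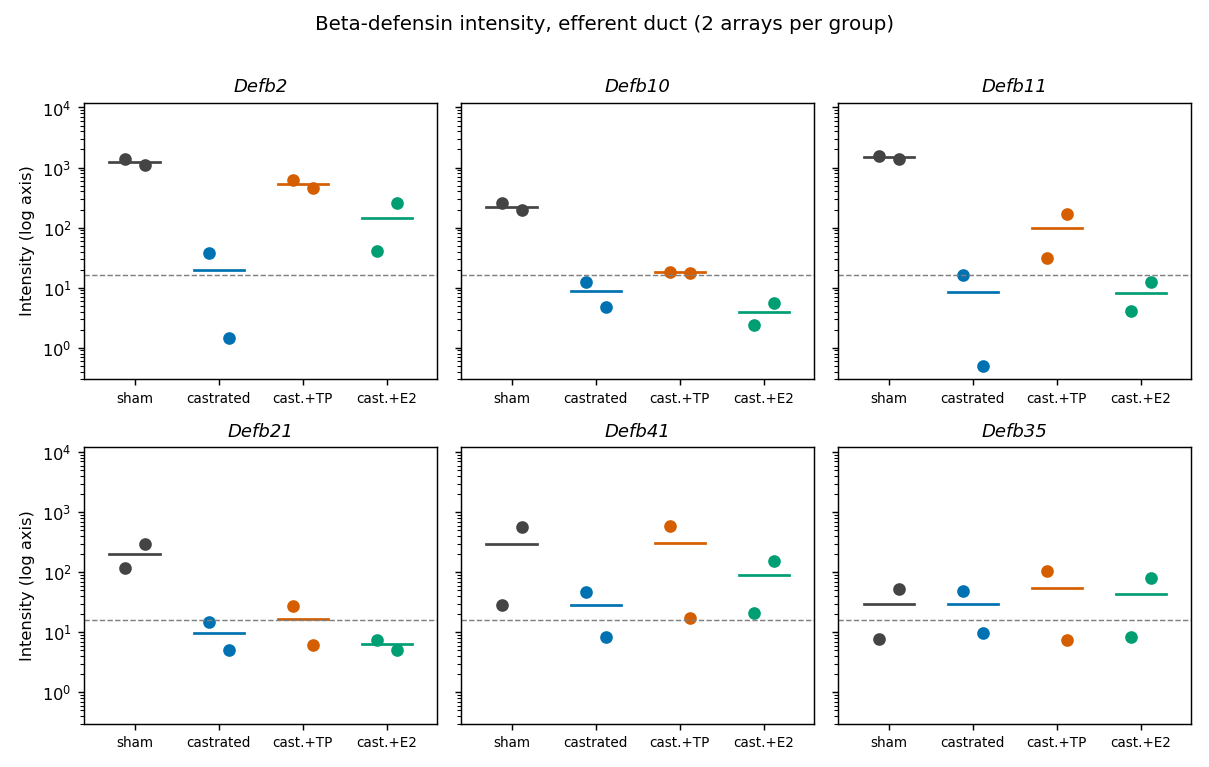
Deposited intensity (log scale) of Defb2, Defb10, Defb11, Defb21, Defb41 and Defb35 on each efferent duct array, by group. Points are arrays, bars are group means and the dashed line is 16. Defb4 and Defb7 are not drawn. Defb2, Defb10 and Defb11 are high on both sham arrays, while the 2 arrays of a group often stand far apart for Defb35 and Defb41.

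After testosterone propionate in the duct, Defb2 was at 613 and 456, 43% of its sham mean, against 38 and 1.47 in the castrated group. It rose 70.7-fold (log2 difference 6.14, 95% interval 2.05 to 10.24, limma adjusted p = 0.0361). Castrated array 2 is itself under 16, and with values under 16 set to 16 the log2 difference was 4.42 (adjusted p = 0.0317). Defb2 was thus the 1 of the 8 genes called higher, a count that is not above the share of all genes called higher. Defb7 was called lower with both means under 16, at 0.0433 and 0.177 against 5.87 and 7.81, so it is not expressed in either group. Over all genes, 23.2% were called higher and 12.3% lower in this comparison, which sets vehicle arrays against hormone arrays with lower actin ratios, and the median of all genes moved by 0.226 on the log2 scale. The Defb2 adjusted p was 0.0513 to 0.135 without either sham, testosterone propionate or estradiol array or without castrated array 2, and it stayed under the threshold without castrated array 1. Over 18 alternative limma settings it ran from 0.00214 to 0.282.

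Defb10 and Defb11 did not pass the test after testosterone propionate in the duct. Defb10 was at 18.5 and 17.5, just above 16, and Defb11 at 30.6 and 169, with limma adjusted p values of 0.159 and 0.0914. After estradiol Defb2 was at 40.3 and 253 (log2 difference from castrated 3.75, limma adjusted p = 0.142), Defb10 at 2.43 and 5.46 and Defb11 at 4.06 and 12.5. Defb7, under 16 in both groups, was the 1 of the 8 genes called lower after estradiol and 0 were called higher, where 20.0% of all genes were called higher and 10.7% lower and the median of all genes moved by 0.245 on the log2 scale (0.086 after quantile normalization). Between the hormones 0 of the 8 genes were called in the duct, and limma called 0.0% of all genes higher and 0.0% lower, with 1467 genes at an unadjusted p under 0.05. Defb10 was among the latter (unadjusted p = 0.00883), its means being 18 ± 0.711 and 3.94 ± 2.15 (SD, n = 2).

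For Defb35 and Defb41 the arrays of each duct group stood far apart, and neither passed a test within the duct. Defb41 was at 28 and 561 in sham, 47.6 and 8.53 in castrated, 595 and 17.4 in testosterone propionate and 21.4 and 156 in estradiol duct. Gpx5, a secreted peroxidase typical of caput epithelium, was at 27.3 and 576 on the sham, 43.6 and 2.26 on the castrated, 676 and 18.4 on the testosterone propionate and 61.3 and 448 on the estradiol arrays. Defb35 was at 7.69 and 51.9 on the sham, 49.2 and 9.91 on the castrated, 103 and 7.58 on the testosterone propionate and 8.37 and 80.2 on the estradiol arrays. The arrays high in Gpx5 (sham 2, testosterone propionate 1 and estradiol 2) were the ones high in Defb41 and Defb35 within their groups, and array 1 was the higher castrated array for all 3 genes. Leaving out those 3 arrays was a choice made after seeing the data. The log2 difference between testosterone propionate and castrated duct then went from 2.34 to -0.21 for Defb41. For Defb2 it went from 6.14 to 5.93. The change for Defb41 followed from leaving out its higher testosterone propionate array, with 1 array left in that group, so no cause was tested.

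Caput epithelium markers summed to 2834 to 6905 in sham duct, 40.4 to 118 in castrated, 200 to 1953 in testosterone propionate and 101 to 638 in estradiol duct, highest in sham duct as were Defb2, Defb10 and Defb11. On the sham duct arrays Adam7 was at 1381 and 1484 and Lcn5 at 1394 and 2536, whereas Rnase10 was at 7.52 and 386. Efferent duct markers (7 of 7 measured) summed to 6690 to 7037 in sham duct, 4385 to 4781 in castrated, 3542 to 5168 in testosterone propionate and 3282 to 3736 in estradiol duct, and to 1476 to 1549 in sham caput, with Cubn under 16 in the sham duct. Germ cell markers summed to 318 to 353 in sham and 77.5 to 80.9 in castrated duct, with 5 of the 6 means under 16 after castration. Neutrophil markers (7 of 7 measured) summed to 700.0 to 753 in sham and 123 to 236 in castrated duct, with 4 and 5 of the 7 means under 16. Few genes thus carry that sum, and it need not follow the number of neutrophils. Ltf, which is on that list, had a castration effect, duct minus caput, of -6.94 in log2 with values under 16 set to 16. The sums named here were thus higher in sham than in castrated duct, as were Defb2, Defb10 and Defb11, and so was that of fibroblast markers. Lymphocyte markers (5 of 6 measured) went the other way, at 156 to 221 in sham and 318 to 632 in castrated duct. Sums of macrophage, smooth muscle, adipocyte, basal cell, and clear and narrow cell markers overlapped between sham and castrated duct. The part of these tissues and cells in the duct values was not tested.

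**Figure D4:**
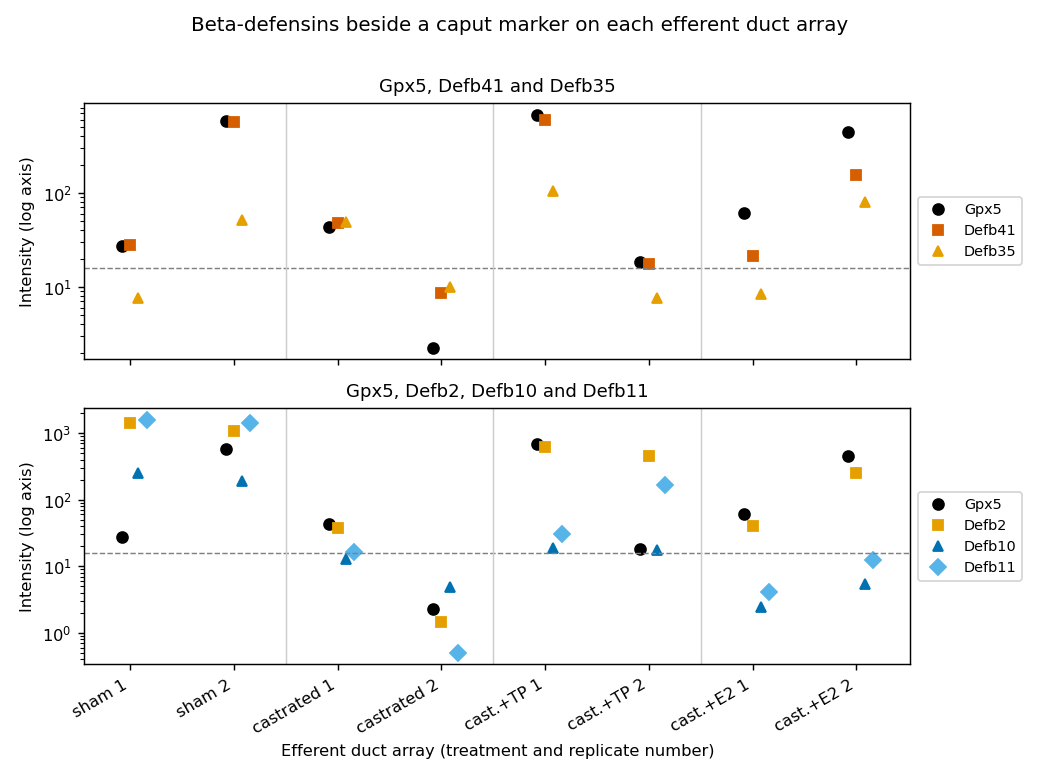
Deposited intensity (log scale) of beta-defensins and Gpx5 on each of the 8 efferent duct arrays, in order of group. Defb41 and Defb35 are high on the arrays where Gpx5 is high (sham 2, testosterone propionate 1, estradiol 2), while Defb2, Defb10 and Defb11 are high on both sham arrays.

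Sham duct and sham caput were compared next. Defb11 was at 1487 ± 127 in the duct and 112 ± 51.6 in the caput (SD, n = 2 each), 14-fold higher in the duct (log2 difference 3.80, limma adjusted p = 0.0448). Defb21 was 20.0-fold, Defb41 42.4-fold and Defb35 240.2-fold lower in the duct, with limma adjusted p values of 0.000568, 0.0271 and 0.00106. The sham duct arrays stood apart for the last 3 genes. Without sham duct array 1 the folds were 12.6 for Defb21, 9.49 for Defb41 and 92.5 for Defb35, and without array 2 they were 31.8, 189.8 and 623.7. With values under 16 set to 16, which touches 1 of the duct arrays of Defb35, its fold was 166.6. Those are 1 of the 8 genes higher and 3 lower, where 23.4% of all genes were called higher and 31.0% lower, so the counts lie near those of all genes. The median of all genes differed by -0.30 on the log2 scale between the tissues, and by -0.06 after quantile normalization. Defb2 was at 1242 ± 217 in the duct and 1163 ± 463 in the caput, with a log2 difference of 0.14 (95% interval -2.76 to 3.05) that turned to -0.021 after quantile normalization. Defb10 was at 224 ± 43.8 in the duct and 357 ± 94.4 in the caput (log2 difference -0.66, limma adjusted p = 0.399).

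The Defb21 and Defb35 calls between tissues stood with any 1 of the 16 arrays left out. Without caput sham array 1 or 2 the Defb41 adjusted p was 0.0853 to 0.0897 and without duct sham array 1 it was 0.198, in a range of 0.000853 to 0.198 over 24 settings. The Defb11 adjusted p was 0.0537 to 0.171 with any 1 of the 8 caput, sham duct or estradiol duct arrays left out, in a range of 0.00223 to 0.171. The series text has both tissues taken from each sample, so that arrays of the same group and number in the tissues may share animals. With treatment and number together as a block, the Defb11 adjusted p was 0.0551.

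In 1 fit of all 16 arrays, the change after castration itself differed between the tissues for Defb2 and Defb11. That fit shares 1 estimate of the spread over both tissues, although the castrated arrays of both genes stood much further apart in the duct. In the fit of the duct alone, neither fall passed the test. The difference of the log2 changes, duct minus caput, was -8.46 for Defb2 (95% interval -12.57 to -4.36, limma adjusted p = 0.0424) and -9.26 for Defb11 (95% interval -13.76 to -4.76, limma adjusted p = 0.0424). The change was thus more negative in the duct, where the castrated arrays of both genes lay below both sham arrays, than in the caput, where their log2 differences were 1.10 and 0.23. These were 2 of the 8 genes lower and 0 higher, where 1.27% of all genes were called higher and 1.96% lower. For Defb10, which had fallen in the caput, the difference was -1.17 (95% interval -3.13 to 0.80, limma adjusted p = 0.502), and for Defb21 it was 0.78 (95% interval -1.48 to 3.03).

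With values under 16 set to 16 the differences were -6.74 for Defb2 and -6.76 for Defb11 (limma adjusted p = 0.00964 and 0.00737). With treatment and number as a block, neither of these 2 calls held, with adjusted p values of 0.12 and 0.118. The adjusted p was 0.0591 to 0.126 for Defb2 and 0.0565 to 0.127 for Defb11 with any 1 of the 8 caput arrays or the sham duct arrays left out, or 1 of the testosterone propionate duct arrays for Defb2 and of the estradiol duct arrays for Defb11. Over 24 alternative limma settings they ran from 0.00379 to 0.126 and from 0.00416 to 0.127.

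Of 40 other beta-defensin genes listed, 12 were measured, and 2 of the 12 were called lower and 0 higher after castration in the caput, where 6.12% of all genes were called lower and 7.9% higher. Defb15, which stands between Defb11 and Defb35 on chromosome 8, was at 4053 and 6502 in sham and 927 and 425 in castrated caput and fell 8.18-fold (limma adjusted p = 0.035). Defb42 went from 6795 and 6684 to 3377 and 3048 and fell 2.1-fold (limma adjusted p = 0.0238). The median log2 difference of the 12 was -0.59, against 0.06 over all genes. With each caput array left out in turn, the adjusted p ran from 0.0474 to 0.14 for Defb15, lost without either sham, castrated or testosterone propionate array, and from 0.03 to 0.112 for Defb42, lost without either sham or castrated array. Over 17 alternative limma settings they ran from 0.000788 to 0.411 and from 0.0006 to 0.549.

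None of the 12 was called against castrated after either hormone in the caput. Defb13, the gene next to Defb35, was at 435 and 365 in sham, 163 and 80.2 in castrated, 19.8 and 24.3 in testosterone propionate and 59.2 and 19.5 in estradiol caput. Like Defb35 it was lower than sham after both hormones (18.1-fold and 11.7-fold, limma adjusted p = 0.025 and 0.0209) and had not passed the test after castration (limma adjusted p = 0.113). Without either sham array the adjusted p of Defb13 was 0.0905 to 0.118 after testosterone propionate and 0.0807 to 0.0967 after estradiol, without either testosterone propionate array the former was 0.0984 to 0.109, and without estradiol array 2 the latter was 0.0506. Defb15 was also lower than sham after testosterone propionate (12.5-fold, limma adjusted p = 0.0323) and estradiol (15.1-fold, limma adjusted p = 0.0165). Its adjusted p was 0.0544 to 0.127 after testosterone propionate without either sham, castrated or testosterone propionate array, and 0.0622 to 0.0773 after estradiol without either sham array or estradiol array 2.

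Defb1, a constitutively expressed epithelial beta-defensin, was at 730.1 and 905 in sham and 478 and 440.1 in estradiol caput, 1.77-fold lower (limma adjusted p = 0.0297), and it was 2.37-fold higher after testosterone propionate than after estradiol (limma adjusted p = 0.0371). With any 1 caput array left out these adjusted p values were 0.0542 to 0.112 and 0.0768 to 0.157. Defb42 was 2.2-fold lower after estradiol than in sham (limma adjusted p = 0.0177, and 0.0565 to 0.0871 without either sham array or estradiol array 2). Over the alternative settings the adjusted p of these comparisons with sham ran from 0.000917 to 0.377 for Defb1 and from 0.00037 to 0.495 for Defb42.

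In the duct, limma called 0 of the 12 other beta-defensins after castration, with a median log2 difference of -2.29 against 0.02 over all genes. Defb9, which lies between Defb10 and Defb11, was at 444 and 248 in sham duct and 1.04 and 0.744 in castrated duct, and at 7.63 to 39.2 on the caput arrays. Its change after castration differed between the tissues by -8.46 (limma adjusted p = 0.0494). The adjusted p was 0.0692 to 0.148 with any 1 of the 8 caput arrays or of the sham, castrated or estradiol duct arrays left out, 0.101 with the block, and 0.00569 to 0.148 over 23 settings. The 4 neighbours Defb2, Defb10, Defb9 and Defb11 were thus high on both sham duct arrays. Of the next genes in the run, Defb15 was at 21.8 and 694, Defb35 at 7.69 and 51.9 and Defb13 at 16.3 and 45.8 there, each higher on sham array 2, the array high in Gpx5. The promoters of Defb9 and Defb10 share 79.9% of aligned bases and those of Defb9 and Defb11 77.3%. Whether the Defb9 probes also match Defb10 or Defb11 transcripts was not tested.

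Of 27 other antimicrobial genes listed, 24 were measured, and 1 rose and 2 fell after castration in the caput, shares near the 7.9% and 6.12% of all genes, with a median log2 difference of 0.36 against 0.06 over all genes. Rnase10, a caput ribonuclease-family protein needed for sperm maturation, fell 372-fold (limma adjusted p = 0.000469) and Lcn2, an iron-siderophore binder, 2.36-fold (limma adjusted p = 0.00954). Cd14, the endotoxin co-receptor, rose 2.41-fold (limma adjusted p = 0.00954). The calls of Lcn2 and Cd14 were lost without either sham or castrated array, at adjusted p values of 0.0521 to 0.0635 and 0.0526 to 0.0573. In the duct 1 of the 24 rose after castration and 0 fell, where 0.115% of all genes rose and 0.176% fell. Ang, angiogenin, was at 6.53 and 9.76 in sham and 424 and 218 in castrated duct (at least 19-fold, limma adjusted p = 0.0286, and 0.0538 to 0.0818 without either sham or hormone array).

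Of 20 genes for pattern recognition and defensin induction, 17 were measured, and 2 rose and 0 fell after castration in the caput, against 7.9% and 6.12% of all genes (median log2 difference 0.26). Tlr4, the endotoxin receptor, rose 2.85-fold (limma adjusted p = 0.0183) and Tlr5, the flagellin receptor, 2.4-fold (limma adjusted p = 0.0404). Without either castrated array or sham array 2 the Tlr4 adjusted p was 0.06 to 0.0909, and with any 1 caput array left out that of Tlr5 was 0.0532 to 0.152. Macrophage markers, Cd14 among them (8 of 8 measured), summed to 1952 to 1955 in sham and 2212 to 2291 in castrated caput.

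Values of 5 steroid receptor genes were examined. After castration in the caput Esr1, the estrogen receptor alpha, rose 1.82-fold (limma adjusted p = 0.0423), Nr3c1, the glucocorticoid receptor, rose 2.29-fold (limma adjusted p = 0.00891) and Gper1, a membrane estrogen receptor, fell 5.68-fold (limma adjusted p = 0.00349). Without either sham, castrated or estradiol array the Esr1 adjusted p was 0.0693 to 0.171, and without either sham or castrated array that of Nr3c1 was 0.0508 to 0.0527. Those are 2 of the 5 higher and 1 lower, against 7.9% and 6.12% of all genes. None of the 5 was called against castrated after either hormone in the caput.

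The genes most like each defensin across the 8 caput arrays were ranked by Pearson r of log2 intensity among 14311 genes expressed in a caput group. The arrays share their groups, so r describes the pattern and carries no test. Defb21 was closest to Tmbim4 (r = 0.996), Slc1a1 (0.994) and Sdf2 (0.993). Slc1a1, a glutamate transporter, had means of 2283 in sham, 473 in castrated, 541 in testosterone propionate and 332 in estradiol caput, a smaller span than that of Defb21. Defb41 was closest to Spink10 (r = 0.992), Mrpl41 (0.990) and Smim26 (0.988). Spink10, named as a protease inhibitor of the Kazal type, had means of 2528 in sham, 36.8 in castrated, 884 in testosterone propionate and 135 in estradiol caput, the order of groups seen for Defb41.

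Defb35 was closest to Exoc1 (r = 0.990), Dnajc12 (0.980) and Parl (0.977), whose sham and castrated means were likewise above both hormone means. The differences were small in those genes: Exoc1 had means of 277 in sham, 261 in castrated, 215 in testosterone propionate and 212 in estradiol caput. Defb10 was closest to Spcs1 (r = 0.988), Slirp (0.985) and Cypt4 (0.983). Defb2 was closest to Tmem129 (r = 0.956), Snrpb (0.949) and Cyp1b1 (0.946), and Defb11 to Clic4 (0.967), Brca1 (0.959) and Asz1 (0.953). No beta-defensin was among the 3 genes closest to another.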

How the data were processed

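RNA from efferent duct and caput epididymis was measured on 16 arrays of 45101 probe sets, 8 arrays per tissue in 4 groups of 2. The authors deposited 1 intensity per probe set and array on a linear scale. RMA was used, per the submitters' processing notes, with no version given, but the deposited values are not on the log2 scale and their quantiles differ between arrays. Per the labels' protocols the tissues were labelled with different kits (Ovation for the duct, One-Cycle for the caput).

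Probe sets with exactly 1 symbol (34958, against 932 with several and 9211 with none) were kept, and the brightest probe set over the 16 arrays stood for each of 18194 genes. Differences were fitted on log2 of the deposited intensity with limma 3.58.1 in R 4.3.3, with 1 model per tissue (8 arrays, 4 residual degrees of freedom) and 1 model of 16 arrays for contrasts of tissues, and adjusted over all genes. Tables and figures were made with Python 3.11.15, pandas 2.3.3, Biopython 1.88 and matplotlib 3.10.9. The script was tested on simulated data. Alternatives were a quantile normalization, a floor of 16, a filter on the dimmest 40% of genes, other summaries of probe sets, an intensity trend, fits of only the 4 arrays compared or of all 16, a replicate block, each array left out in turn, and the duct arrays with Gpx5 over 100 left out. The last was chosen after seeing the data.

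The members and lists were chosen with earlier results of these data known. All 8 members are named. Other beta-defensins are named where they passed the threshold in a caput comparison or in the contrast of tissues; Defb9 was also described because of its values. Of other lists at most 4 genes with the largest changes are named, and for each expressed member the 3 genes most like it. Nothing in the labels says that the 2 arrays of a group hold RNA of different animals, so the spread behind the p-values is that of these samples and may be technical. The 2 arrays per group limit the precision.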

Additional observations from a re-analysis of the deposited data

Results flagged for a closer look

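Defb2 and Defb11 stand out because their change after castration differed between the tissues by a test of the difference itself. For Defb2 the log2 change in the efferent duct minus that in the caput was -8.46 (limma adjusted p = 0.0424), with intensities of 1396 and 1088 in sham and 38 and 1.47 in castrated duct and of 835 and 1489.9 in sham and 2932 and 1954 in castrated caput. For Defb11 it was -9.26 (limma adjusted p = 0.0424), with 1576 and 1397 in sham and 16.2 and 0.499 in castrated duct and of 75.9 and 149 in sham and 119 and 131 in castrated caput. Neither call held with treatment and number as a block (adjusted p = 0.12 and 0.118), and over 24 settings the adjusted p ran from 0.00379 to 0.126 and from 0.00416 to 0.127. Tissue and labelling kit cannot be told apart here.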

How the results depend on the processing

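The counts below are of the 8 beta-defensins called by limma, with the count as reported in brackets. With only the 4 arrays compared, the caput counts were 0 (4) for castrated against sham, 0 (2) for testosterone propionate against castrated, 0 (2) for testosterone propionate against estradiol, 0 (2) for testosterone propionate against sham and 1 (4) for estradiol against sham, and in the duct 1 (2) for testosterone propionate against castrated. There 0.0% to 0.0385% of all genes were called in the caput comparisons and 12.9% in the duct one. In 1 fit of all 16 arrays they were 0 (2), 0 (2), 1 (2) and 2 (4) for the last 4 of those caput comparisons, where 378, 448, 1556 and 2920 of all 18194 genes were called, and in the duct 4 (0) for castrated against sham and 2 (1) for estradiol against castrated, where 5.45% and 40.7% were. With the dimmest 40% of genes left out they were 3 (0) for estradiol against castrated and 5 (2) for testosterone propionate against sham in the caput and 2 (0) for castrated against sham in the duct, where 5.28%, 32.7% and 4.49% of all genes were called. With an intensity trend they were 3 (0), 5 (2) and 4 (0) for those, and 2 (1) for estradiol against castrated in the duct, where 3.98%, 21.3%, 3.84% and 37.5% of all genes were called. With values under 16 set to 16 they were 2 (0) for estradiol against castrated in the caput and 1 (0), 1 (2) and 0 (1) for castrated against sham, testosterone propionate against castrated and estradiol against castrated in the duct, where 1.89%, 1.32%, 33.8% and 31.2% of all genes were called. Quantile normalization gave 1 (0) and 1 (2) for the first and second of those duct comparisons, where 0.467% and 24.3% were. Every probe set by itself, or the mean of a gene's probe sets, gave 1 (2) for testosterone propionate against estradiol in the caput. In those settings 0.724% of probe sets and 0.841% of genes were called. For the difference between tissues in the castration effect, quantile normalization, both other probe summaries and the replicate block each gave 0 (2). Shares called there were 2.54% of all genes with quantile normalization, 1.65% with the mean of probe sets, 1.67% of single probe sets and 0.0% with the block. With the 3 duct arrays high in Gpx5 left out, the sham and both hormone groups of the duct hold 1 array each, so no counts are given. The cause was not tested, except that fits of fewer arrays have fewer residual degrees of freedom.

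Within a tissue the replicate numbers do not pair the arrays: deviations of same-numbered arrays from their group means correlated between -0.032 and 0.022 in the caput and between -0.048 and 0.065 in the duct over 6 pairs of groups each. With the replicate block the counts were 0 (2) for testosterone propionate against castrated and 0 (2) for testosterone propionate against estradiol in the caput. In the duct the count was 1 (2) for testosterone propionate against castrated. Of all genes, 0.0385%, 0.0495% and 31.1% were called in those comparisons with the block.

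With each array left out in turn, 1 group is left with 1 array, so no counts are given for those fits. Expressed members whose calls were lost with an array left out are named above with each comparison.

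None of the log2 differences that changed sign had passed the threshold. Over arrays left out, Defb11 after castration in the caput ran from -0.26 to 0.72, Defb2 after testosterone propionate from -0.16 to 0.54, Defb10 after estradiol from -0.43 to 1.10 and Defb35 between the hormones from -0.037 to 0.22. In the duct Defb35 ran from -1.23 to 1.52 after castration, from -1.54 to 2.23 after testosterone propionate, from -1.40 to 1.86 after estradiol and from -1.77 to 2.00 between the hormones. There Defb41 ran from -0.21 to 4.88 after testosterone propionate and from -1.73 to 3.36 between the hormones, and Defb21 from -0.49 to 1.66 after testosterone propionate. Between the tissues Defb2 in sham ran from -0.27 to 0.56, and the difference in the castration effect ran from -0.45 to 2.31 for Defb35 and from -0.29 to 4.03 for Defb41. With the floor of 16 Defb35 after castration in the duct was -0.038, and with quantile normalization Defb2 in sham duct against caput was -0.021. Without the 3 duct arrays, testosterone propionate against castrated gave -0.49 for Defb21, -1.54 for Defb35 and -0.21 for Defb41, estradiol against castrated gave -1.40 for Defb35, and testosterone propionate against estradiol gave -0.29 for Defb21, -0.14 for Defb35 and -0.29 for Defb41.

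Signal over background limits Defb4 and Defb7 in both tissues and most beta-defensins in the castrated and estradiol duct. The highest of 27 Bacillus control probe sets was 8.09 to 14.3 on duct vehicle arrays and 2.33 to 3.97 on duct hormone arrays, so low values of those sets are not on 1 footing.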
